A study of Mus musculus with 20 samples.

Results

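Broad H3K27ac regions at the ends of protein-coding genes that were present in every one of 7 peak lists of RAW264.7 cells are described here. Peaks from 2 or more of the 7 lists had to cover a stretch of the genome for it to count as a consensus region, and touching stretches were merged. The regions were selected on measured values: each had to be overlapped by a peak in all 7 lists, to be at least 3000 bp wide, and to lie within 1 kb of either end of a protein-coding gene of the GRCm38 annotation. Of 18659 consensus regions, 8993 were overlapped by all 7 lists, 5100 of these lay at a gene end, and 845 were also broad. The 845 regions lay at the ends of 1080 of 21887 protein-coding genes, or 4.93%. Presence and width in these 7 lists chose the regions, so both are given as a description, and a region could not be absent from any of the 7 lists. Just inside the width limit were the regions of Ybx1 (3003 bp), Emg1 with Phb2 (3003 bp) and Adamtsl4 (3005 bp), and just outside it were those of Hnrnpul1 with Axl (2998 bp), Ifrd1 (2997 bp) and Ppia (2993 bp).

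H3K27ac, acetylation of lysine 27 of histone H3, was mapped by chromatin immunoprecipitation and single-end sequencing of 50 bp reads in RAW264.7, a mouse macrophage line derived from monocytes that serves as a model of osteoclast precursors. Cells of the untreated group were compared with cells that had received the osteoclast-inducing cytokine RANKL (50 ng/ml, 4 h), RANKL with the BET inhibitor I-BET (500 nM, 4 h), or I-BET without RANKL. The 7 lists used for the selection were those of replicates 1 and 3 of the untreated, RANKL and RANKL+I-BET groups and the sole I-BET library, which is numbered 3. The 3 libraries numbered 2 took no part in the selection, and the 10 input samples were not analysed here. All libraries came from the same cell line, fixed with 1% formaldehyde, and nothing in the labels says that they came from separate cultures, so that the spread among them may be technical. Peak lists hold no read counts, so sequencing depth is unknown, and a larger share of cells with the mark cannot be told apart from more mark per cell.

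The 7 lists covered 16.1 to 25.9 Mb of the genome each. The lists numbered 2 stood apart from these: untreated replicate 2 covered 7.79 Mb, RANKL replicate 2 covered 185 Mb and RANKL+I-BET replicate 2 covered 3.44 Mb. Of 12 macrophage marker genes, 10 to 12 had a peak at an end in each of the 7 lists, and 8 carried a broad region. Of 10 markers of T and B lymphocytes, 0 or 1 had such a peak in these lists, and of 10 markers of fibroblasts and osteoblasts and 8 markers of tissues not in the culture, none had one. In the list of RANKL replicate 2, 10, 7 and 7 of these 3 sets had an end peak.

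Acetylation of H3 at lysine 27 is placed by the acetyltransferases p300 and CBP at active promoters and enhancers. BET proteins such as BRD2 bind acetylated histones through their bromodomains and help to release paused RNA polymerase II, and I-BET compounds occupy those bromodomains. At most active genes the mark forms a short domain around the nucleosome-free start site. Wide acetylated domains are best known from genes that define a cell type and from very highly transcribed genes. RANKL, the ligand of the receptor RANK (Tnfrsf11a), drives macrophage precursors towards osteoclasts, the cells that resorb bone, through NF-kB, AP-1 and NFATc1.

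The promoters inside the broad regions spanned a wide range of base composition, and 6 of them are printed to show that range together with short promoter motifs. Each sequence is the 250 bases before an annotated start site from RefSeq (GRCm38.p6), 5′ to 3′ on the gene's own strand, and all lie inside a broad region. Capitals mark exact matches, on either strand, to GGGCGG (the GC box), TATAAA (the TATA box), CCAAT (the CCAAT box), GAGGAAGT (an ETS core as bound by PU.1), TGACTCA (the AP-1 site), TGACGTCA (the CRE) or CACGTG (the E-box). None of these motifs contains another, although neighbouring matches can overlap.
Lyz2, chr10:117282273-117282522, minus strand, a macrophage lysozyme: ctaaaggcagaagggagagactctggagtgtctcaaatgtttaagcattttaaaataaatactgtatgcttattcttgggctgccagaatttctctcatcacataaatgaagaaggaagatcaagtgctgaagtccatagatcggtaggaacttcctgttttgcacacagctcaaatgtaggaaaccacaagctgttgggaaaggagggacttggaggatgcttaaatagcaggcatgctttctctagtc
Ctsk, chr3:95498960-95499209, plus strand, the collagen-degrading protease of osteoclasts: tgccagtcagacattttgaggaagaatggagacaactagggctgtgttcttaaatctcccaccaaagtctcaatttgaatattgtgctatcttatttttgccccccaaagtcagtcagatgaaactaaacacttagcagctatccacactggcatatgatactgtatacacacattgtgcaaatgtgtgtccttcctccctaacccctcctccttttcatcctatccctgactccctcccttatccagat
Cd68, chr11:69666171-69666420, minus strand, a lysosomal macrophage glycoprotein: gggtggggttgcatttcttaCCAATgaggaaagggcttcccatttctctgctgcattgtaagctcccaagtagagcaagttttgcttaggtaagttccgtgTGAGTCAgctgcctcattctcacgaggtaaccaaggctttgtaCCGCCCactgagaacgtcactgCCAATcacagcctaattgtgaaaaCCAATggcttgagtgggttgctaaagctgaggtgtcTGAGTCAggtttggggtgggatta
Tnf, chr17:35202008-35202257, minus strand, an inflammatory cytokine: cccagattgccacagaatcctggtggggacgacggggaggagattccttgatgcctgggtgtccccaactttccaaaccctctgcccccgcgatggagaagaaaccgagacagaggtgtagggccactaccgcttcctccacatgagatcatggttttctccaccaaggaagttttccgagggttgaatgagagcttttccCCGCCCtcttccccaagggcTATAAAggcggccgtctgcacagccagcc
Fos, chr12:85473640-85473889, plus strand, a subunit of AP-1: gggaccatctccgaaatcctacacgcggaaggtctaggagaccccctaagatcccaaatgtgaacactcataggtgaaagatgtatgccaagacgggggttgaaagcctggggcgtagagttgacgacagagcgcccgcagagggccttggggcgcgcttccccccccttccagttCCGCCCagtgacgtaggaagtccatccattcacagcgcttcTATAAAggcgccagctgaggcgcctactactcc
Cebpb, chr2:167688665-167688914, plus strand, a myeloid transcription factor: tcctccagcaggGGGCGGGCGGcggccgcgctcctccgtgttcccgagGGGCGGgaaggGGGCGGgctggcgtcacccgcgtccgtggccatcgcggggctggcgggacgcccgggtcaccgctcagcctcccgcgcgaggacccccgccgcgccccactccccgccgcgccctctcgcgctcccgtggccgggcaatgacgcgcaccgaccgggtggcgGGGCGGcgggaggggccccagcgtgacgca
The Lyz2 promoter held 41.6% G and C and a single CpG, and the Ctsk promoter held 43.2% G and C and 0 CpG. The Cebpb promoter lay at the other end, with 81.6% G and C and 41 CpG. Tnf and Fos each held a TATA box close to the start and a GC box, and Cd68 held CCAAT boxes and AP-1 sites.

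Over all 923 promoters with a start site inside a broad region (752 genes), the median G and C content was 61.6%, and it was 61.6% for the 4171 promoters in narrower constitutive gene-end regions and 55.6% for all 21263 promoters of the table. The median number of CpG in the 250 bases was 17 in broad regions, 19 in narrower ones and 10 over all promoters. TATAAA stood in 9.10% of the promoters in broad regions, 4.60% of those in narrower regions and 11.6% of all promoters. GAGGAAGT stood in 4.23%, 2.83% and 2.23%, and GGGCGG in 60.8%, 62.8% and 42.6%. CCAAT was present at 33.9%, 34.6% and 35.4%. TGACTCA was present at 2.93%, 2.52% and 4.06%, TGACGTCA at 1.73%, 3.55% and 1.92%, and CACGTG at 9.10%, 10.1% and 6.63%. These shares describe letters and not binding. A promoter entry existed for 80.9% of the genes at broad regions. The shares for broad regions come only from the 752 genes with a start site inside one.

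The regions covered 4.13 Mb together. Their median width was 4091 bp, 219 lay within 500 bp of the limit, 237 were at least 5 kb wide and 37 at least 10 kb. The widest region, 28527 bp at chr10:117277420-117305946, spanned the lysozyme genes Lyz2 and Lyz1, which encode the bacteria-degrading enzyme that macrophages secrete in bulk. The second, 20826 bp at chr9:65532767-65553592, lay at the 3′ end of Plekho2, whose start carried another broad region of 6371 bp. Cyth4, a cytohesin that activates ARF GTPases, followed with 17389 bp, and Kcnn4, a calcium-activated potassium channel, with Smg9, a factor of nonsense-mediated decay, with 17112 bp.

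The other 6 of the 10 widest regions included both lineage genes and general regulators. The region of Frmd8 (16567 bp) overlapped the long noncoding RNA Neat1, the scaffold of nuclear paraspeckles, over 11215 bp, and touched only the 3′ end of Frmd8. Spef1l with Adam8, a membrane-bound metalloprotease, had 16431 bp, the splicing regulator Mbnl1 had 15253 bp, and the zinc-finger repressor Zeb2 had 14867 bp. Csf1r, the receptor for M-CSF on which macrophages depend, had 13921 bp, and Cttnbp2nl had 13664 bp.

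**Figure D1:**
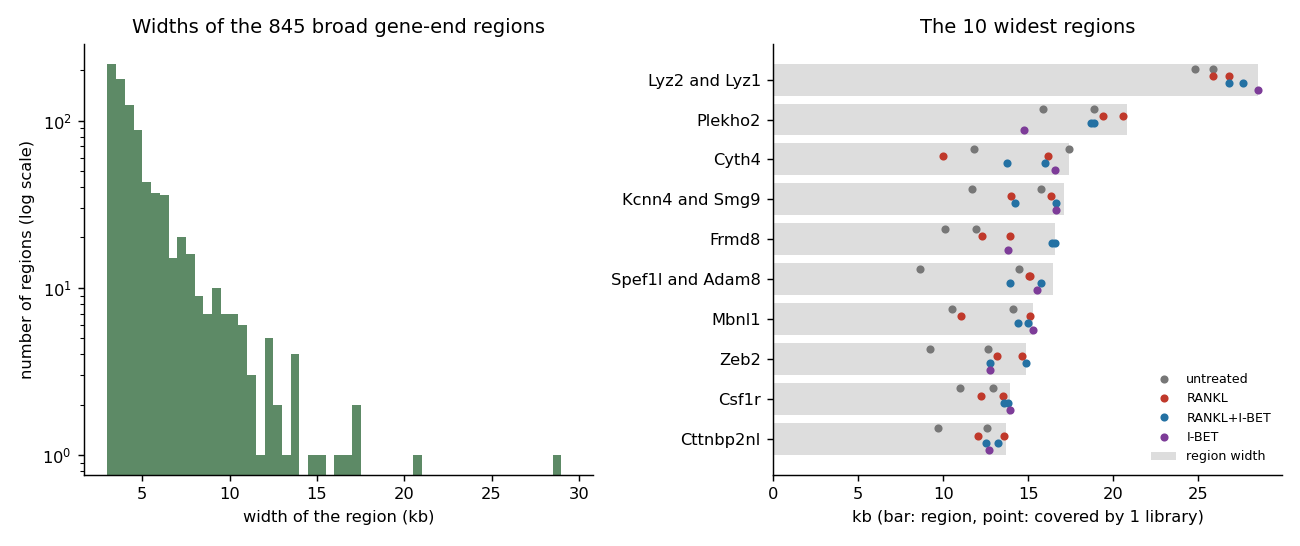
Left, number of broad gene-end regions by width in kb, with a log count axis. Right, the 10 widest regions, with the region width as a grey bar and the width covered by peaks of each of the 7 libraries as points coloured by treatment. Most regions lie under 5 kb, and the Lyz2 and Lyz1 region reaches 28527 bp.

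Covered widths of these regions varied between the libraries of one group as well as between treatments. In the Lyz2 and Lyz1 region, peaks covered 24783 and 25871 bp in untreated replicates 1 and 3, 26782 and 25892 bp with RANKL, 27624 and 26828 bp with RANKL and I-BET, and 28507 bp with I-BET. The groups do not overlap for either treatment against untreated, but the differences are small beside the width of the region. In the Cyth4 region the covered widths were 11816 and 17389 bp untreated, 9972 and 16176 bp with RANKL, 13756 and 15970 bp with both, and 16598 bp with I-BET, so that replicate 1 was lower than replicate 3 in every group and all groups overlap. The Csf1r region was covered over 10956 and 12902 bp untreated, 12218 and 13531 bp with RANKL, 13788 and 13579 bp with both, and 13921 bp with I-BET. Here RANKL overlapped untreated, and both libraries with RANKL and I-BET lay above RANKL.

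Most of the regions lay at starts. Of the 845 regions, 646 (76.4%) had an annotated start site of a gene they touched inside them or within 1 kb. A further 51 touched only a 3′ end, and 148 could not be placed because no strand was known. For narrower constitutive regions the share at a start was 79.0%. Extent was measured in 430 regions that touched 1 gene and held a start site of it, from the most upstream start inside. The region extended a median of 1312 bp upstream and 2712 bp downstream, and 313 (72.8%) extended farther downstream. Where several starts lie inside, this choice lengthens the downstream part. In narrower regions the medians were 581 and 928 bp, with 75.8% farther downstream. One gene was touched by 612 regions, while 204 touched 2 genes and 29 touched 3 or more, so a region near crowded genes can be credited to a neighbour.

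Some of the regions also held small and long noncoding RNA genes. Hairpins of 19 microRNAs, of 1005 in the RefSeq table, lay in 16 broad regions, compared with 33 hairpins in 32 of the 4255 narrower regions. The 3′ region of Vmp1 (12491 bp) held Mir21a, the region of Tspoap1 (3754 bp) held Mir142 and Mir142b, a blood-cell microRNA locus, and the region of Impdh2, Ndufaf3 and Dalrd3 (4008 bp) held Mir191 and Mir425. Their main mature forms are printed because their hairpins lie inside broad constitutive regions. Capitals mark the seed, bases 2 to 8, and sequences are from RefSeq (GRCm38.p6).
miR-21a-5p, chr11:86584120-86584141, minus strand: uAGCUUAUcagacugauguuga
miR-142a-3p, chr11:87756903-87756925, plus strand: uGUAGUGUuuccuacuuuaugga
miR-191-5p, chr9:108568325-108568347, plus strand: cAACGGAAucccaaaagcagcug
miR-425-5p, chr9:108568789-108568811, plus strand: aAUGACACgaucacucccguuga
The seeds differ from one another. In the Vmp1 region the covered widths were 11321 and 11185 bp untreated, 12167 and 12491 bp with RANKL, 11754 and 11270 bp with RANKL and I-BET, and 10102 bp with I-BET. Both RANKL libraries lay above all others. The Tspoap1 region was covered over 1816 and 3469 bp untreated, 2832 and 3662 bp with RANKL, 3534 and 3749 bp with both and 2781 bp with I-BET, and RANKL overlapped untreated. Long noncoding RNA genes overlapped 154 regions, among them Gas5, Zfas1 and Neat1.

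The genes at the broad regions are given by 21 gene lists. Over all protein-coding genes 4.93% carried a broad region and 23.1% only a narrower constitutive one, so 17.6% of the 6131 genes with any constitutive end region carried a broad one. These 3 values stand beside those of each list. The lists were written with earlier results of these data known, and their shares are a description with no test.

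Genes for the macrophage surface, lysosome and signalling carried a broad region in 21 of 40 cases (52.5%), with a median width of 6163 bp over those genes. After the lysozymes and Csf1r, the widest were those of Ctsb, a lysosomal protease (12923 bp), Tyrobp, the adaptor of activating myeloid receptors (12478 bp), and Cd14, the co-receptor for lipopolysaccharide (10201 bp). Transcription factors of the myeloid lineage carried one in 14 of 30 cases (46.7%). Spi1, which encodes the master regulator PU.1, led with 11178 bp, followed by Irf5 (8345 bp), an activator of inflammatory genes, Bcl6 (6455 bp), a repressor, and Mitf (5885 bp), a factor of late osteoclast genes. The region of Cebpb spanned 3703 bp.

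The Spi1 region was covered over 8304 and 10444 bp untreated, 10039 and 11052 bp with RANKL, 9109 and 11158 bp with RANKL and I-BET, and 10992 bp with I-BET. Replicate 3 was the wider of the 2 libraries in every group, and the groups overlap. The median covered share of the 15 regions of the myeloid factors was 53.4% and 87.0% in untreated replicates 1 and 3, 87.5% and 91.1% with RANKL, 97.3% and 86.4% with both, and 90.6% with I-BET. Untreated replicate 1 was the low library here.

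AP-1 and immediate early genes carried a broad region in 13 of 30 cases (43.3%). The region of Junb, an AP-1 subunit, with its neighbour Prdx2 had 12541 bp, Zfp36, whose product destabilises cytokine mRNA, with Med29 had 12015 bp, Zfp36l2 had 9072 bp and Mafg, a small MAF partner, had 7129 bp. At Fos (4830 bp) the covered widths were 2817 and 4174 bp untreated, 4185 and 4711 bp with RANKL, 4604 and 3985 bp with RANKL and I-BET, and 3901 bp with I-BET. The RANKL libraries lay above the untreated ones, RANKL replicate 1 only just above untreated replicate 3.

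NF-kB genes carried a broad region in 6 of 28 cases (21.4%), and a further 15 carried a narrower one. Nfkbid, an atypical inhibitor of NF-kB, shared the 12478 bp region of Tyrobp, and Tnfrsf11a, the receptor for RANKL itself, had 11092 bp. Tnip1, an inhibitor of NF-kB signalling, had 5087 bp and Nfkbia, the feedback inhibitor IkBa, had 4871 bp. The Tnfrsf11a region was covered over 5722 and 10995 bp untreated, 9984 and 9964 bp with RANKL, 6607 and 11092 bp with RANKL and I-BET, and 8481 bp with I-BET, so the RANKL libraries lay between the untreated ones. At Nfkbia the widths were 3987 and 3404 bp untreated, 4871 and 4871 bp with RANKL, 4824 and 4149 bp with both, and 3688 bp with I-BET. Both RANKL libraries were covered in full there and lay above all others.

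Of 19 genes of the NFATc1 axis and bone resorption, 4 carried a broad region (21.1%). These were Tcirg1, a subunit of the proton pump that acidifies the resorption pit (12363 bp, shared with Ndufs8 and Aldh3b1), Cd9, a tetraspanin (5345 bp), Plekhm1, which acts in lysosome fusion (5193 bp), and Ctsk (3523 bp, shared with Arnt). Nfatc1 itself was not among them. In the region of Arnt and Ctsk the covered widths were 2461 and 2252 bp untreated, 3523 and 3294 bp with RANKL, 2138 and 2151 bp with RANKL and I-BET, and 2347 bp with I-BET. The RANKL libraries lay above all others and those with I-BET added lay below untreated, but no comparison passed the test: the log2 difference was 0.51 ± 0.10 (SE, adjusted p = 0.192) for RANKL against untreated and -0.64 ± 0.10 (adjusted p = 0.122) for RANKL+I-BET against RANKL, by limma. No list outside RANKL covered more than 2461 bp of this region, so the width limit favoured higher RANKL values here.

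Cytokine and chemokine genes carried broad regions in 7 of 28 cases (25%), and 15 of the others had no consensus region at an end. Tnf lay in a region of 10446 bp with its neighbours Ltb and Lta, the chemokine Ccl9 had 4401 bp, Il18 had 4278 bp, and Ccl3 shared 3535 bp with Ccl4. The Tnf region was covered over 7392 and 4691 bp untreated, 8186 and 9079 bp with RANKL, 6706 and 9021 bp with RANKL and I-BET, and 8064 bp with I-BET. RANKL lay above untreated, and RANKL with I-BET overlapped both. Interferon response genes carried 3 of 24 (12.5%): Trim25 (6338 bp), Ifitm3 (5194 bp) and B2m (3348 bp).

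Genes of general cell functions differed from each other in the share that was broad. Actin, tubulin and motility genes carried a broad region in 18 of 36 cases (50.0%), led by Actb, which encodes beta-actin (7973 bp), Tln1, the integrin linker talin (7706 bp, with Creb3), Cap1, an actin recycling factor (7177 bp), and Pfn1, which encodes profilin (6895 bp, with Rnf167 and Eno3). Glycolytic genes followed with 8 of 18 (44.4%), led by the glycolytic enzymes Pkm (9408 bp), Aldoa (7220 bp), Eno1 (6073 bp) and Tpi1 (5198 bp). Gapdh, another enzyme of the pathway, had 4300 bp with Ncapd2. By contrast 2 of 40 proteasome genes (5%) and 4 of 84 genes for oxidative phosphorylation (4.76%) carried one, although 31 and 54 carried a narrower constitutive region. Ndufs8, the first of those 4, lay in the region of Tcirg1.

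Ribosomal protein genes carried 16 of 84 (19.0%), the widest being Rpl18 with Sphk2 (4487 bp), Rps9 (4455 bp), Rps15a (4316 bp) and Rps27a (3829 bp). Splicing and RNA-binding genes carried 10 of 34 (29.4%), with Hnrnpl (4862 bp), Hnrnpc (4834 bp), Hnrnpa2b1 (4825 bp) and Pcbp1 (4564 bp) in front. Translation factors carried 6 of 22 (27.3%), led by the helicase gene Eif4a1 (6827 bp, shared with Cd68 and Mpdu1) and by Eef1a1, an elongation factor (3971 bp). Cell cycle genes carried 6 of 33 (18.2%), with Ccnd1, the G1 cyclin D1, at 7181 bp, and chaperone and ubiquitin genes 5 of 28 (17.9%). MYC network and ribosome biogenesis genes carried 3 of 28 (10.7%): Mnt (7331 bp), Rrs1 (4516 bp) and Nop56 (3154 bp).

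Among 30 regulators of elongation, BET function and acetylation, 4 carried a broad region (13.3%). They were Brd2, a BET protein and so a target of I-BET (8354 bp, with H2-DMa), Jarid2, a Polycomb partner (4705 bp), Cdk9, the kinase of P-TEFb (4447 bp), and Hexim1, the inhibitor of P-TEFb (3698 bp). At Hexim1 the covered widths were 2946 and 3310 bp untreated, 2058 and 2907 bp with RANKL, 3048 and 3527 bp with RANKL and I-BET, and 2549 bp with I-BET, with RANKL below both other pairs of libraries. At Brd2 the widths were 5298 and 6677 bp untreated, 5782 and 7048 bp with RANKL, 6762 and 7421 bp with both, and 6385 bp with I-BET, and RANKL overlapped each of the other groups.

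**Figure D2:**
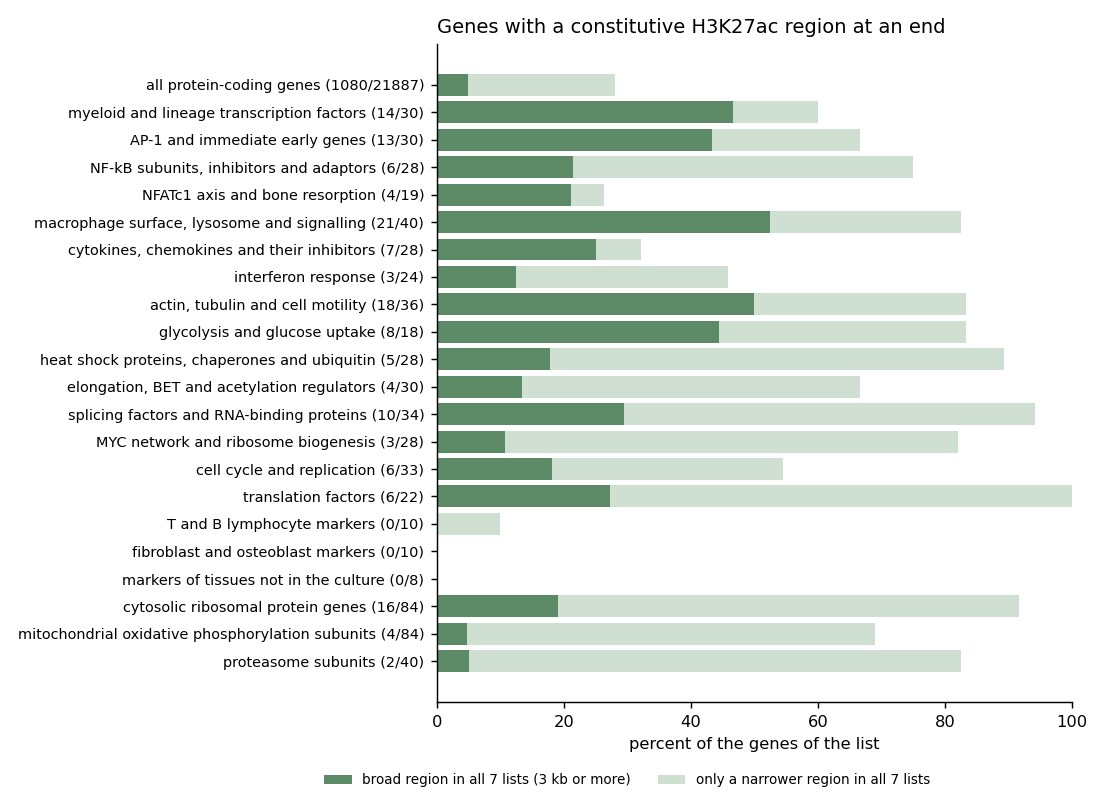
Percent of the genes of each list that carried a broad region (dark) or only a narrower region (light) at an end in all 7 lists, with the number of genes carrying a broad region over the number in the annotation. The dark bars run from 52.5% for macrophage surface genes to 4.76% for oxidative phosphorylation and 0 for the 3 lists of other cell types.

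Covered width was compared between the 3 groups that had replicates 1 and 3, to ask whether RANKL or I-BET changed how much of a region was acetylated. limma was fitted to log2(covered bp + 100) over all 18659 consensus regions, and p-values were adjusted over all of them by the Benjamini-Hochberg method. Each group had 2 libraries in the fit, and the I-BET library was not in it. The 3 comparisons share groups, so their values are given side by side and are not independent of each other.

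With RANKL against untreated, none of the 845 regions passed the test. The smallest adjusted p was 0.0522, and 85 regions (10.1%) had an unadjusted p under 0.05, beside 8.98% of all consensus regions and 7.81% of those in all 7 lists. Over all consensus regions 1.35% were called wider and 0.0482% narrower with RANKL at an adjusted p under 0.05. Of the 8993 regions in all 7 lists, 0.0667% were called wider and 0.0% narrower. The median log2 difference over the broad regions was 0.26, with 753 of 845 (89.1%) above 0, beside 0.32 over all 8993 regions in all 7 lists and 0.38 over narrower gene-end regions. Both RANKL libraries lay above both untreated libraries in 341 regions (40.4%), beside 38.0% of all regions in all 7 lists, and below them in 17 (2.01%), beside 2.91%. These shares are close to the background of all regions in the 7 lists.

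The size of the difference moved with untreated replicate 1. Its peaks covered a median of 66.8% of a broad region, while the other 6 lists covered 84.5% to 93.8%. It covered 405 of the regions with a single peak, against 662 to 788 in the other 6 lists. Without untreated replicate 1 the median difference was 0.09, and without untreated replicate 3 it was 0.39 with 133 regions (15.7%) called, beside 15.9% of all consensus regions in that fit. When each library was centred on its median over the regions in all 7 lists, the median of the broad regions became -0.09 with 39.3% above 0, and it was 0.06 with 55.3% above 0 when all lists were reduced to one covered length.

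**Figure D3:**
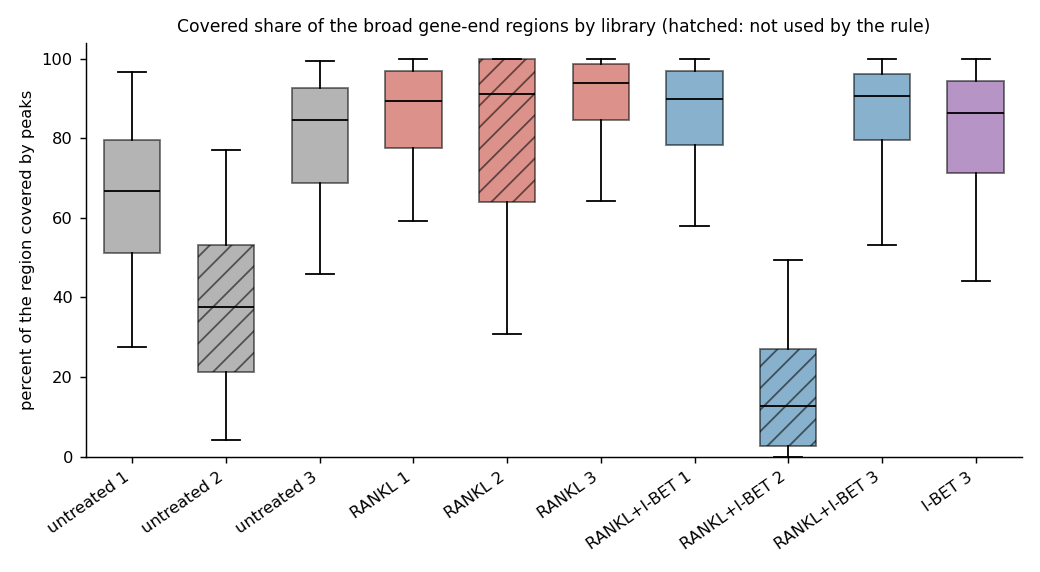
Percent of each of the 845 regions covered by peaks, by library. Boxes show the quartiles with the median as a line and whiskers show the 5th and 95th percentiles, coloured by treatment and hatched for the 3 libraries that took no part in the selection. Untreated replicate 1 (median 66.8%) lies below the other 6 unhatched libraries.

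The largest differences with RANKL belonged to regions close to the width limit in which untreated replicate 1 had little. At Taf11, a subunit of the basal factor TFIID, with Anks1 (3131 bp) the covered widths were 148 and 1078 bp untreated, 2821 and 3089 bp with RANKL, 3026 and 1403 bp with RANKL and I-BET, and 1572 bp with I-BET. The log2 difference was 2.50 ± 0.86 (SE, adjusted p = 0.535, limma), with both RANKL libraries higher. Ptger4, a receptor for prostaglandin E2 (3290 bp), had 141 and 2360 bp untreated and 3219 and 2740 bp with RANKL. Arhgap5, a GTPase-activating protein (3506 bp), had 241 and 1895 bp untreated and 2205 and 3506 bp with RANKL. In both, the 2 untreated libraries differed from each other by more than the nearest RANKL library did from untreated. No untreated library covered more than 2360 bp of the Taf11, Ptger4 or Arhgap5 region, so the width limit favoured higher treated values.

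Serpinb8, an intracellular protease inhibitor (3471 bp), was a case in which the untreated libraries lay close together. The widths were 833 and 1115 bp untreated, 3420 and 3464 bp with RANKL, 3413 and 2312 bp with RANKL and I-BET, and 3144 bp with I-BET. The log2 difference was 1.73 ± 0.25 (SE, adjusted p = 0.0936, limma) for RANKL against untreated, with all treated libraries above the untreated ones. The second region of this kind held the linker histone gene H1f0 and Gcat (3400 bp), with 1364 and 1373 bp untreated, 3370 and 3400 bp with RANKL, 1992 and 1484 bp with both, and 1316 bp with I-BET. Its log2 difference was 1.25 ± 0.17 (SE, adjusted p = 0.0814, limma). When all lists were reduced to one covered length, both differences turned, to -0.84 and -3.88. No untreated library covered more than 1373 bp of either region. Their widths came from treated libraries, so the width limit favoured higher treated values in both. The smallest adjusted p, 0.0522, belonged to Dyrk3, a protein kinase named here after its values were seen (5162 bp), with 2700 and 3015 bp untreated, 4991 and 5018 bp with RANKL, 4854 and 4941 bp with both, and 3964 bp with I-BET.

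Eif4a1 with Senp3 (3933 bp), a region separate from the one that holds Cd68, was the fifth by size of difference. It was covered over 456 and 1362 bp untreated, 2356 and 3285 bp with RANKL, 3933 and 3908 bp with RANKL and I-BET, and 3815 bp with I-BET. All treated libraries lay above the untreated ones. No untreated library covered more than 1362 bp, so the width limit favoured higher treated values here too. In the other direction the differences were smaller. Plod1, a collagen lysyl hydroxylase, with 2510039O18Rik (3044 bp) had 2631 and 2570 bp untreated and 2015 and 1051 bp with RANKL. The others were Senp3 with Tnfsf13 and Tnfsfm13, Hexim1, Slf2 and Cgas with Mto1, with log2 differences from -0.36 to -0.31 and adjusted p of 0.647 in each.

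With I-BET added to RANKL, 1 broad region was called narrower, which is 0.118% of the 845. Of all consensus regions, 1.36% were called narrower and 0.316% wider. Of the 8993 regions in all 7 lists, 0.0222% were called narrower and 0.0% wider. The median log2 difference over the broad regions was -0.02, with 377 of 845 above 0, beside -0.05 over all regions in all 7 lists. Both RANKL+I-BET libraries lay above both RANKL libraries in 102 regions (12.1%), beside 10.5% of all regions in all 7 lists, and below them in 159 (18.8%), beside 21.7%. An unadjusted p under 0.05 was found for 21 regions (2.49%), beside 4.29% of all consensus regions and 2.10% of those in all 7 lists.

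The region called narrower was that of Oaz1, ornithine decarboxylase antizyme, a brake on polyamine synthesis. It spans 3419 bp at chr10:80823943-80827361, reaching 2713 bp upstream and 705 bp downstream of the start. Its covered widths were 1716 and 1313 bp untreated, 3419 and 3150 bp with RANKL, 228 and 437 bp with RANKL and I-BET, and 402 bp with I-BET. Both RANKL libraries lay above the untreated pair, and all 3 libraries with I-BET lay below it. No list outside RANKL covered more than 1716 bp, so the region met the width limit through the RANKL libraries. The selection thus favoured a lower value in any group set against RANKL here. The log2 difference between RANKL+I-BET and RANKL was -3.01 ± 0.31 (SE, adjusted p = 0.0418, limma). It stayed between -5.08 and -2.20 under 14 alternatives, but the adjusted p was under 0.05 in only 1 of them and ranged from 0.0395 to 1 over all, being lost when any of the 6 libraries was left out.

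The next differences below RANKL did not pass the test. Id2, an inhibitor of helix-loop-helix factors (5105 bp), had 3474 and 4627 bp with RANKL and 3060 and 1119 bp with RANKL and I-BET, with 1004 and 3348 bp untreated and a log2 difference of -1.07 ± 0.75 (SE, adjusted p = 1, limma). H1f0 with Gcat had a log2 difference of -0.94 ± 0.17 (SE, adjusted p = 0.199, limma). Anxa5, a phospholipid-binding annexin, with 1810062G17Rik (3524 bp) had 3524 and 3008 bp with RANKL and 1775 and 1656 bp with I-BET added. Rrm2, a subunit of ribonucleotide reductase (3590 bp), had 3590 and 3451 bp with RANKL and 1649 and 2120 bp with I-BET added. In both, the untreated libraries spanned the levels with I-BET added, at 2406 and 976 bp and at 1469 and 2801 bp. No untreated or RANKL+I-BET library covered more than 1992 bp of the H1f0 region, 2406 bp of Anxa5 or 2801 bp of Rrm2. The width limit thus favoured higher RANKL values in all of them.

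Above RANKL, the largest difference was that of Cdc34, a ubiquitin-conjugating enzyme (3144 bp), with 863 and 1920 bp with RANKL, 2338 and 3037 bp with RANKL and I-BET, and 1017 and 2186 bp untreated. Selenok, a selenoprotein of the endoplasmic reticulum (3138 bp), had 2044 and 1717 bp with RANKL and 3138 bp in both libraries with I-BET added, with 1209 and 1246 bp untreated and 1147 bp with I-BET alone. Its log2 difference was 0.71 ± 0.13 (SE, adjusted p = 0.2, limma), and the groups do not overlap. No untreated or RANKL library covered more than 2186 bp of the Cdc34 or Selenok region. The width limit thus favoured higher RANKL+I-BET values in both. Ndst2 with Camk2g, Slc20a1, a phosphate transporter, and Fam120a followed, with log2 differences from 0.70 to 0.62 and adjusted p of 1. Laptm5, a lysosomal membrane protein named here after its values were seen (9280 bp), had 5564 and 5638 bp untreated, 5925 and 6302 bp with RANKL, 9251 and 9255 bp with RANKL and I-BET, and 9161 bp with I-BET. The 3 libraries with I-BET were the wide ones, and the log2 difference against RANKL was 0.59 ± 0.08 (SE, adjusted p = 0.0771, limma).

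**Figure D4:**
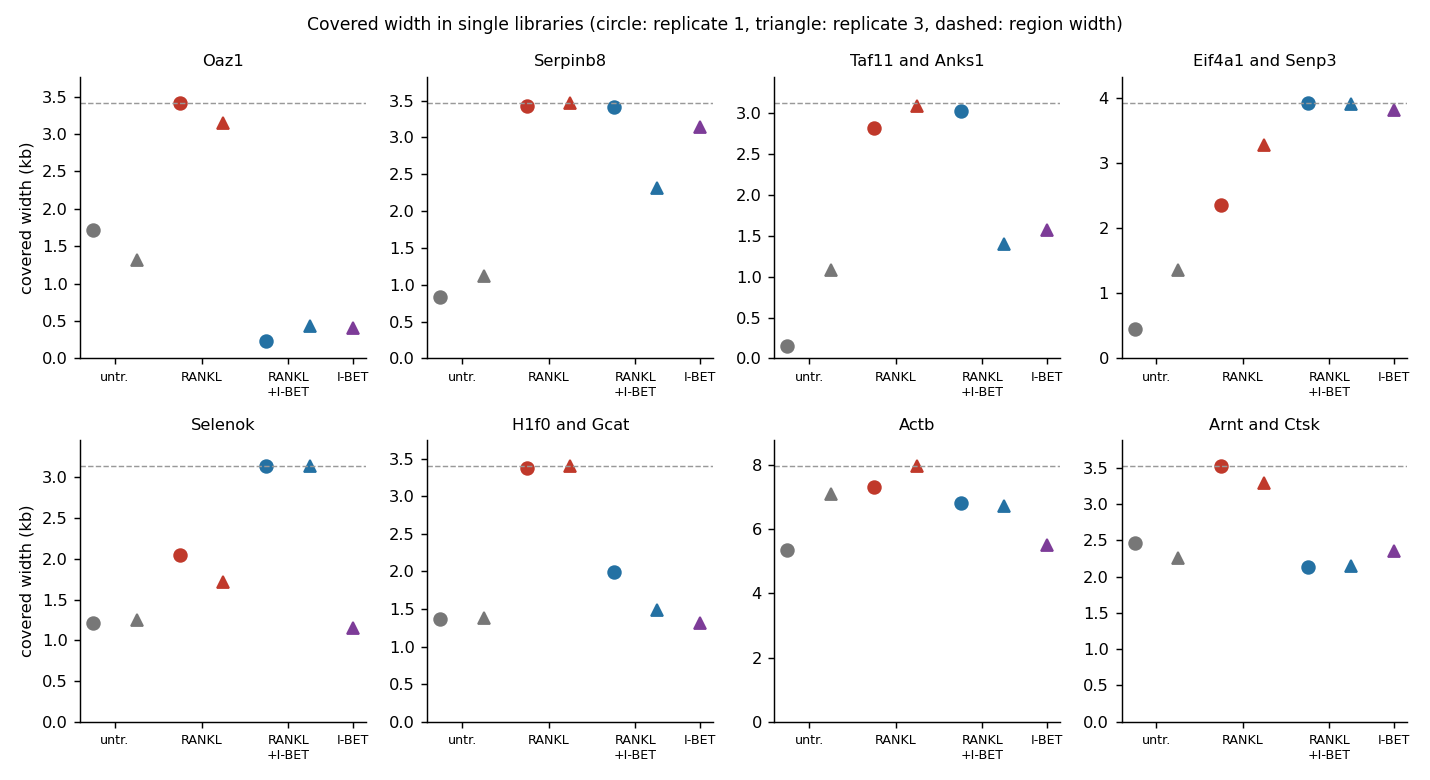
Covered width in kb of 8 broad regions in each of the 7 libraries, with circles for replicate 1, triangles for replicate 3 and the region width as a dashed line. At Oaz1 the RANKL libraries reach 3419 and 3150 bp and all 3 libraries with I-BET lie under 500 bp.

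For RANKL with I-BET against untreated cells, none of the 845 regions passed the test, beside 0.0% of all consensus regions called wider and 0.0% called narrower by limma. The smallest adjusted p was 0.159, and 70 regions (8.28%) had an unadjusted p under 0.05, beside 6.13% of all consensus regions and 5.92% of those in all 7 lists. The median log2 difference was 0.25, with 737 of 845 above 0, beside 0.26 over all regions in all 7 lists. Both libraries lay above both untreated libraries in 325 regions (38.5%), beside 30.9%, and below them in 23 (2.72%), beside 4.78%. The widest differences above untreated belonged to Eif4a1 with Senp3, Taf11 with Anks1, Ptger4, Arhgap5 and Trafd1, a regulator of innate immune signalling (3676 bp), which had 411 and 1547 bp untreated and 2438 and 3218 bp with RANKL and I-BET. Below untreated they were those of Oaz1, with a log2 difference of -1.93 ± 0.31 (SE, adjusted p = 0.292, limma), Rubcnl, Rnh1, a ribonuclease inhibitor, Creg1, and Rhno1 with Foxm1, a cell cycle factor. In the regions with the widest differences above untreated, no untreated library covered more than 2360 bp. The width limit thus favoured higher treated values there.

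Gene lists were not tested as sets. No broad region of a listed gene was called in any comparison, and counts are given beside those over the 845 regions. Over all 8993 regions in all 7 lists, both RANKL libraries lay above untreated in 38.0%. Both RANKL+I-BET libraries lay below RANKL in 21.7% of these and above untreated in 30.9%. In 13 of 18 regions of actin, tubulin and motility genes both RANKL libraries lay above both untreated libraries (341 of 845 over all broad regions), and in 11 of 18 both RANKL+I-BET libraries lay below both RANKL libraries (159 of 845). The medians of the log2 difference were 0.55 and -0.11, beside 0.26 and -0.02. At Actb the covered widths were 5358 and 7094 bp untreated, 7318 and 7973 bp with RANKL, 6814 and 6730 bp with RANKL and I-BET, and 5524 bp with I-BET, with log2 differences of 0.30 ± 0.16 (SE, adjusted p = 0.647, limma) and -0.17 ± 0.16 (SE, adjusted p = 1). Both RANKL libraries lay highest, but the first difference became -0.04 when libraries were centred. At Pfn1 the widths were 4236 and 4727 bp untreated, 6895 and 6754 bp with RANKL, 6545 and 6168 bp with both, and 4613 bp with I-BET, again with RANKL highest.

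In the 20 regions of macrophage surface, lysosome and signalling genes, the counts were 8 above untreated with RANKL and 2 below RANKL with I-BET added, while 14 lay above untreated with RANKL and I-BET (325 of 845 over all broad regions). The medians were 0.13, 0.03 and 0.17 for RANKL against untreated, RANKL+I-BET against RANKL and RANKL+I-BET against untreated. For the 15 regions of myeloid transcription factors the counts were 5 above untreated with RANKL and 0 below RANKL with I-BET added, with medians of 0.34 and 0.03. For the 16 regions of ribosomal protein genes they were 4 and 4, with medians of 0.31 and -0.02. Shares over all broad regions were 40.4% above untreated with RANKL and 18.8% below RANKL with I-BET added. Over all regions in all 7 lists they were 38.0% and 21.7%. Untreated replicate 1 covered a median of 78.1% of the macrophage regions and 56.9% of the ribosomal ones, so the lists started from different levels in that library, and its part in these counts was not tested.

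I-BET without RANKL had 1 library, and its difference from untreated cells was not tested. Its peaks covered a median of 86.2% of a broad region, beside 84.5% in untreated replicate 3. Of the 845 regions, 457 were covered over more bp with I-BET than in untreated replicate 3, 385 over fewer and 3 over the same number, with a median ratio of 1.01. At Oaz1 and Laptm5 the I-BET library lay with the RANKL+I-BET libraries. At Serpinb8 it lay above untreated with all treated libraries, and at Selenok and Pfn1 it lay with the untreated ones.

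Column 7 of the lists holds the authors' fold enrichment of each peak over local background, and each region was given the highest value among its peaks in a list. These values are not comparable between lists and are given within each list only. The median over the 845 regions was 2.81 and 2.51 in untreated replicates 1 and 3, 3.36 and 2.67 with RANKL, 3.72 and 2.55 with RANKL and I-BET, and 2.65 with I-BET. The medians of all peaks of the same lists were 2.62, 2.41, 3.11, 2.54, 3.47, 2.50 and 2.55 in that order. As a rank within its list, a broad region had a median percentile of 53.3 to 63.7 over the 7 lists, and narrower gene-end regions had 49.4 to 52.1. The highest value per region is taken over more peaks where a region holds several. Among the 211 widest regions (5313 to 28527 bp) the median percentile was 62.3, and among the 212 narrowest (3003 to 3480 bp) it was 55.1.

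Few of the broad regions ranked near the top of their lists in fold. Of the 845 regions, 605 (71.6%) had a median percentile of at least 50 over the 7 lists, 3 had at least 90 and 1 was under 10. Among the highest were those of Nav1 (percentile 92.0), Fam174a (90.5), Mypop with Irf2bp1 (89.6) and Chd2, a chromatin remodeller (89.1). The lowest was Patz1, a zinc-finger factor, at 1.81. Its region of 4843 bp had folds of 2.14 and 2.40 untreated, 1.36 and 1.84 with RANKL, 2.23 and 1.64 with RANKL and I-BET and 1.06 with I-BET, and peaks covered 3232 to 4843 bp of it in the 7 lists. The others at the low end were Lrrc75a with Mmgt2 (17.5), Lilr4b (18.2), Plcb4 (18.2) and, next, the splicing factor Srsf1. The 10 widest regions lay between 52.4 for Mbnl1 and 84.5 for Plekho2.

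**Figure D5:**
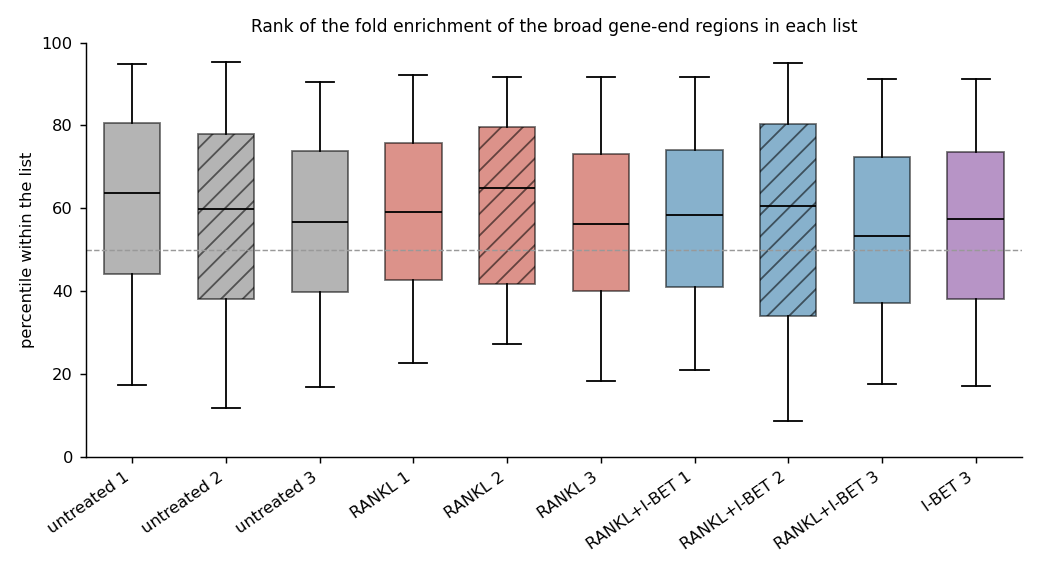
Percentile of the fold enrichment of the broad regions among all peaks of the same list, by library, with boxes for the quartiles, whiskers for the 5th and 95th percentiles, and hatching for the libraries numbered 2. The medians lie between 53.3 and 64.8, above the dashed line at 50 but far from the top of each list.

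The 3 libraries numbered 2 give values that took no part in the selection. Peaks of untreated replicate 2 overlapped 806 of the 845 regions (95.4%), those of RANKL replicate 2 overlapped 841 (99.5%) and those of RANKL+I-BET replicate 2 overlapped 642 (76.0%). For the narrower gene-end regions in all 7 lists the shares were 76.4%, 99.5% and 51.9%, and for broad regions away from gene ends they were 84.3%, 95.3% and 61.4%. A wide region offers more bp to overlap, and the part of width in this difference was not tested. The median share of a region that was covered was 37.7%, 91.1% and 12.6% in the broad gene-end regions, beside 31.7%, 94.8% and 7.52% in narrower gene-end regions. Of the broad regions 250, 726 and 42 (29.6%, 85.9% and 4.97%) were covered over at least 50%, beside 29.7%, 95.2% and 9.64% of the narrower gene-end regions.

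Regions missing from these lists were named where wide. In untreated replicate 2 the widest of 39 were those of Bcl6, Mycn, a MYC family factor (6238 bp), H2-T24 (5948 bp), Rubcnl (5456 bp) and Ifitm3. In RANKL replicate 2, whose list covered 185 Mb, 4 were missing: Evi2b with Evi2a (7208 bp), P2ry10b (3988 bp), Ptprc, the leukocyte phosphatase CD45 (3865 bp), and Cd53, a leukocyte tetraspanin (3763 bp). In RANKL+I-BET replicate 2 the widest of 203 were those of Slco4a1 (10679 bp), Syne3 (10498 bp), Arl8b with Edem1 (9725 bp), the fractalkine receptor Cx3cr1 (9396 bp) and Stom (8620 bp).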

How the data were processed

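The deposited data were 10 broad peak lists, 1 for each immunoprecipitated library. Per the submitters' processing notes, FastQC, Bowtie2 and MACS2 were used with mm10 (GRCm38); versions, settings and the use of inputs are not given in the sources used here. In the lists as deposited by the authors, column 7 is a ratio, the fold enrichment of a peak over local background. The authors' p and q values stand on a -log10 scale, and q served only as a filter in an alternative.

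Libraries were assigned to groups, and numbered, by their titles. Peaks were intersected with python 3.11.15 (numpy 2.4.6, pandas 2.3.3), and genes, promoters and microRNAs came from RefSeq tables of GRCm38.p6. Start sites were known for genes with a promoter entry. A region touched a gene if it came within 1 kb of either end. Covered bp were compared with limma 3.58.1 in R 4.3.3 on log2(bp + 100) over the 18659 consensus regions, with 3 groups, a trended prior and no replicate block. A region was called at an adjusted p under 0.05. Region finding and the fit were tested on simulated data. Members, gene lists and tests were chosen with earlier results of these data known.

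Named genes were those at the 10 widest regions, up to 4 per gene list by width, the 5 largest differences in each direction of each comparison without overlap of the libraries, the regions nearest the width limit, the 5 highest and 5 lowest in median percentile of column 7, up to 5 regions absent from a list numbered 2, and 12 genes always looked up. Some genes so chosen are not reported here. Alternatives were other consensus, width, distance and q limits, pseudocounts, scalings, a replicate block and each library left out.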

Additional observations from a re-analysis of the deposited data

How the results depend on the processing

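The number of regions followed the limits of the definition. It was 151 where all 7 lists had to cover a stretch, 1954, 448 and 237 at a minimum width of 2000, 4000 and 5000 bp, 552 where each list had to cover 50% of the region, 351 with lists at one covered length and 0 with a -log10 q of at least 5. The genes carrying them numbered 187, 2440, 577, 313, 709, 459 and 0 in the same order. Leaving out each list gave 778 to 819 regions and 991 to 1045 genes.

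With RANKL against untreated, a pseudocount of 10 bp called 1 region, and leaving out a library called 0 to 133 regions, the 133 (15.7%) being without untreated replicate 3, where 15.9% of all consensus regions were called. The median log2 difference was -0.087 centred, 0.057 at one covered length, 0.53 with the libraries numbered 2, and 0.088 to 0.39 with a library left out. With RANKL+I-BET against RANKL, the replicate block, a pseudocount of 500 bp, centring, one covered length, only regions in all 7 lists, full peak widths and the libraries numbered 2 each called 0 regions, as did leaving out any library (0 to 0). A pseudocount of 10 bp called 3, and the median was -0.81 with the libraries numbered 2. With RANKL+I-BET against untreated, leaving out a library called 0 to 97 regions, the 97 (11.5%) being without untreated replicate 3, where 2046 of all 18659 consensus regions were called. The median was -0.017 centred, 0.10 at one covered length, -0.23 with the libraries numbered 2, and 0.068 to 0.36 with a library left out. The cause of these shifts was not tested.

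The replicate block called 0 regions in all 3 comparisons. With 2 numbers, the labels do not pair the libraries, although deviations of same-numbered libraries correlated across regions in all 7 lists (r from 0.17 to 0.28 over 8993 regions, and from 0.32 to 0.38 over the 845 broad regions). At least 50% cover held for 250 regions in untreated replicate 2 and 42 in RANKL+I-BET replicate 2.

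Of 518 alternative values of single regions, 478 kept their direction and side of the threshold and 16 turned. The others kept their direction but crossed the threshold, some losing and some gaining an adjusted p under 0.05 by limma. Of the 37 results behind them, only Oaz1 for RANKL+I-BET against RANKL passed the threshold in the main fit. Nearly all values that kept their side therefore stayed short of the threshold. Leaving out a library from outside a comparison does not change its difference. At one covered length RANKL against untreated became -0.78 for Arhgap5, -0.84 for Serpinb8 and -3.88 for H1f0 with Gcat, RANKL+I-BET against untreated became -0.83 for Arhgap5, and RANKL+I-BET against RANKL became -1.64 for Selenok, -1.89 for Ndst2 with Camk2g, 2.85 for Id2 and 2.05 for H1f0 with Gcat. With the libraries numbered 2, RANKL against untreated became 0.45 for Senp3 with Tnfsf13 and Tnfsfm13, 0.17 for Hexim1, 1.08 for Slf2 and 0.39 for Cgas with Mto1, and RANKL+I-BET against RANKL became -0.22 for Ndst2 with Camk2g, -0.18 for Fam120a and -0.40 for Laptm5. Centred, RANKL against untreated became -0.040 for Actb. Depth is unknown, so a stretch without a peak may hold signal under the calling threshold.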
